A study of Mus musculus with 24 samples.

Results

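The genes described here are 49 genes of glucose, glycogen and tricarboxylic acid (TCA) cycle metabolism, measured in isolated mouse heart muscle cells. They were chosen by name from the 34844 gene names on the array, and a gene is represented by the brightest of its probes that was well above background. They fall into 18 genes of glucose uptake and glycolysis, 7 of glycogen metabolism, 7 of the pyruvate dehydrogenase complex and its kinases, and 17 of the TCA cycle and the reactions that feed it. RNA from 24 samples of primary cardiomyocytes was hybridised to 24 one-colour arrays, 3 arrays for each of 8 groups. Hearts came from wild-type mice or from Top2b-/- mice, which carry a heart-specific deletion of Top2b, the gene of DNA topoisomerase IIβ. The labels give all mice as male, 6 weeks of age and of 129SvEv/C57BL/6 background, and do not name the promoter that drives the deletion. Within each genotype, mice were injected intraperitoneally with doxorubicin, an anthracycline that poisons type II topoisomerases, at 25 mg/kg or with PBS, and cells were isolated by Langendorff perfusion 16 h or 72 h later. The design asks how doxorubicin changes cardiomyocyte expression and whether that response depends on Top2b. The labels do not say that arrays of a group come from separate mice, so p-values measure the spread between these samples only.

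Glucose enters a cardiomyocyte through transporters, is phosphorylated by a hexokinase and is cleaved to pyruvate by glycolysis, or is stored as glycogen. Pyruvate is either reduced to lactate or turned into acetyl-CoA by the pyruvate dehydrogenase complex, which pyruvate dehydrogenase kinases switch off. Acetyl-CoA is burned in the TCA cycle. The adult heart draws most of its energy from fatty acids and uses glucose and lactate beside them.

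Levels are given as log2 of the processed signal minus the array's 75th percentile, so that 0 is the level at the 75th percentile of all non-control spots. A level belongs to 1 probe, so levels of different genes are not set against each other. Differences are on the same log2 scale and carry the standard error (SE) of the limma fit. A difference was called when its adjusted p (Benjamini-Hochberg, over all genes at that time) was under 0.05. Before scaling, the 75th percentile lay between 145.7 and 282.2 intensity units, and 42.9% to 52.6% of spots per array were well above background. All 49 genes could be tested at both times, through the same probe. Of these probes, 48 were well above background on all 12 arrays at 16 h.

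Top2b itself checked the titles: its level lay between 4.03 and 4.39 in the 6 wild-type arrays at 16 h and between 2.54 and 3.34 in the 6 Top2b-/- arrays, and at 72 h between 3.25 and 3.65 against 2.13 to 3.07. For 4 arrays at 16 h (replicate 3 of both PBS groups and replicate 1 of both doxorubicin groups) the genotype characteristic contradicts the title, and the title was used. Although all mice are labelled male, Ddx3y, a gene of the Y chromosome, gave a signal clear of background on 7 arrays only. At 16 h these were the 3 PBS arrays of the wild type and replicate 1 of each doxorubicin group, and at 72 h replicate 4 of wild-type PBS and replicate 3 of Top2b-/- PBS. In PBS at 16 h this signal and genotype therefore cannot be told apart. All wild-type arrays at 16 h and 2 of the Top2b-/- PBS arrays shared slide 1, while the other Top2b-/- arrays at 16 h were on slide 2. At 72 h replicates 2 and 3 of every group were on slide 3 and replicate 4 on slide 4, so no test was made between the times. All 10 cardiomyocyte markers were measured, with mean log2 levels between 8.68 and 9.62 on the 24 arrays. Markers of other cell types are given beside some of the results. In such bulk samples, fewer cells of a type and less RNA per cell cannot be told apart.

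In wild-type cardiomyocytes 16 h after doxorubicin, 7 genes of the glycolysis and glycogen lists were lower: the insulin-regulated transporter Slc2a4, hexokinase Hk2, the phosphofructokinases Pfkl and Pfkp, the phosphoglycerate mutases Pgam1 and Pgam2, and glycogen synthase Gys1. The pyruvate dehydrogenase subunits Pdhb and Pdhx and the TCA cycle subunit Dlst were also lower. The inhibitory kinase Pdk1 and pyruvate carboxylase Pcx were higher, and a single probe named Hk1 was higher too, against the other Hk1 probes. In all, 3 of 49 genes were higher and 10 lower (limma), against a background of 13.7% of all 18751 genes higher and 14.1% lower. The median difference of the 49 was -0.19, that of all genes -0.025. By list, 1 gene was higher and 6 lower of 18 in glycolysis (median -0.20), 0 and 1 of 7 in glycogen metabolism (median -0.17), 1 and 2 of 7 in the pyruvate dehydrogenase list (median -0.26), and 1 and 1 of 17 in the TCA cycle list (median -0.19).

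In Top2b-/- cardiomyocytes 16 h after doxorubicin, 0 of the 49 genes passed the test in either direction, as did 0% of all genes higher and 0% lower in the limma fit, where 791 genes and 1 of the 49 had an unadjusted p under 0.05. The median of the 49 was 0.05. The 13 genes called in the wild type had differences between -0.25 and 0.29 in the Top2b-/- cells, whose PBS controls are other arrays. The difference between the responses, Top2b-/- minus wild type, was itself called for 7 of the 49. It was above 0 for Slc2a4, Hk2, Pfkl, Pgam2, Gys1 and Pdhx, and below 0 for the liver-type glycogen phosphorylase Pygl. Those 6 higher and 1 lower compare with 6.17% and 5.27% of all genes. All 6 were among the genes that fell in the wild type. The wild-type response is part of this difference and uses the same arrays, so that overlap is not a separate result.

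Neutrophil, fibroblast and smooth muscle genes moved with the wild-type response at 16 h. Of 8 neutrophil markers 4 were measured and 3 were higher, S100a8 by 3.50 ± 0.57, S100a9 by 4.20 ± 0.72 and Ly6g by 1.85 ± 0.29. The summed level of the list was 80.5 to 82.5 in PBS and 66.6 to 99.5 with doxorubicin. A sum follows the brightest genes of a list. The mean log2 level of the neutrophil list was -1.718 to -0.486 in PBS and 0.331 to 1.92 with doxorubicin, without overlap. Smooth muscle and pericyte markers were lower in 5 of 8, with a summed level of 80.1 to 104.5 in PBS and 28.7 to 35.5 with doxorubicin. Fibroblast markers were lower in 4 of the 8 measured of 9, with sums of 24.3 to 35.9 and 22.1 to 50.6, and 2 of 8 endothelial markers were lower, with sums of 45.2 to 67.9 and 46.5 to 71.1. The part of these cells in the differences of the 49 genes was not tested. Among the 10 cardiomyocyte markers only Pln, the SERCA inhibitor phospholamban, was called, at -1.05 ± 0.16, and the sums were 10840 to 12090 in PBS and 8790 to 11670 with doxorubicin. In the difference of responses all 8 smooth muscle markers were above 0 (median 1.05, 1 called). There, all 8 measured macrophage markers were below 0 (median -1.21, 1 called), and 2 cardiomyocyte markers were called higher. In Top2b-/- cells with doxorubicin all 8 measured fibroblast (median -0.72) and macrophage (median -0.74) markers were below 0, with 0 called. Their part was not tested either.

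Counts at 16 h changed when single arrays were left out. So did calls among all genes, which ranged from 3630 to 6646 in the wild type and from 1010 to 4746 in the difference of responses. Without wild-type doxorubicin replicate 1, the array of that group with the Ddx3y signal, 23 of 49 genes were called in the wild type and 15 in the difference of responses. Among the arrays with the Ddx3y signal, which are the 3 wild-type PBS arrays and this replicate, 11 were called, with the lone treated array assumed to vary like the other groups. The median there was 0.00 in glycolysis, -0.03 in the pyruvate dehydrogenase list and 0.05 in the TCA cycle list. In the glycogen list Gys1 (3.68), Stbd1 (1.86) and Pygb (5.60) on the lone treated array were below all 3 PBS arrays. Pygl (1.49) was above them, and Pygm, Gbe1 and Phka1 lay within their range. With slide as a block 10 genes were called in the wild type and 0 in the difference of responses. Within slide 1 the wild-type count was 7. Because all wild-type arrays at 16 h were on slide 1, both settings left the wild-type differences unchanged and altered only their error estimates. With the block, the Top2b-/- response rests on PBS replicate 3, the only PBS array on the slide of the treated Top2b-/- arrays. The called differences of responses kept their sign there. The difference of responses also fell to 2 to 4 genes without any 1 of wild-type PBS replicates 1, 2 and 3, Top2b-/- PBS replicates 1, 2 and 3, or Top2b-/- doxorubicin replicates 2 and 3.

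**Figure D1:**
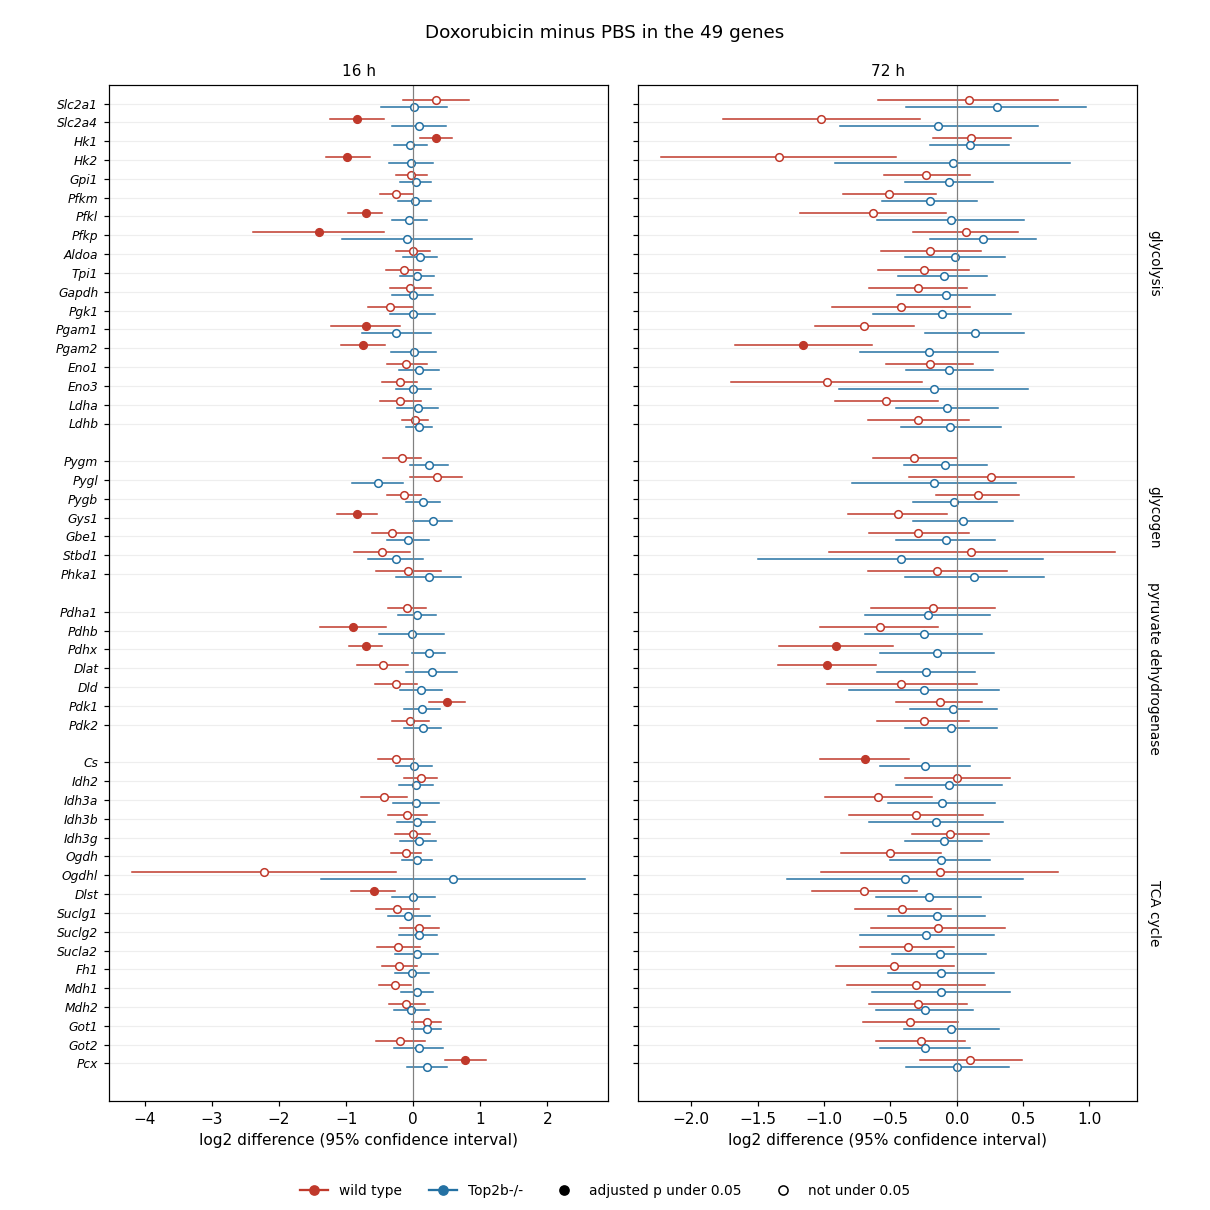
Log2 difference between doxorubicin and PBS for the 49 genes, with 95% confidence intervals, in wild-type (red) and Top2b-/- (blue) cardiomyocytes at 16 h (left) and 72 h (right, on a narrower scale). Filled points have an adjusted p under 0.05: 13 in the wild type at 16 h and 4 at 72 h, and 0 in Top2b-/- cells at either time.

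At 72 h the wild type held 4 called genes, all lower: the muscle mutase Pgam2, the complex subunits Pdhx and Dlat, and citrate synthase Cs. The background was 0.946% of 19672 genes higher and 1.75% lower, and the median of the 49 was -0.31 against -0.075 for all genes. Glycolysis had 1 gene lower (median -0.36), the pyruvate dehydrogenase list 2 (median -0.42), the TCA cycle 1 (median -0.31) and glycogen metabolism 0 (median -0.15). At 72 h 41 of the 49 genes were below 0 in the wild type, and of all genes 42.3% were above 0. Beside that share, 11 of the 13 genes called at 16 h had the same sign at 72 h. Passing at both times were 2 of the 13, which are 2 of the 4 at 72 h, Pgam2 and Pdhx. Arrays of the same replicate number deviated together at 72 h, which the main fit does not model. The median correlation was 0.354, and -0.2425 for different numbers. A replicate block called more of the 49 genes there, as given at the end. With slide as a block 11 genes were lower at 72 h, and within slide 3 the count was 0. It was also 0 without wild-type PBS replicate 2 or 3, wild-type doxorubicin replicate 3 or 4, or Top2b-/- PBS replicate 2 or 3, and 1 without Top2b-/- doxorubicin replicate 3 or 4 or Top2b-/- PBS replicate 4. It rose to 10 without wild-type doxorubicin replicate 2 and to 7 without wild-type PBS replicate 4. Calls among all genes, 530 in the main fit, ranged from 1 to 1552 over these fits without 1 array. Beside the 49 genes, 3 of 6 measured neutrophil markers were higher, S100a8 by 5.68 ± 0.64, S100a9 by 6.44 ± 0.87 and Retnlg by 3.45 ± 0.62. Their list had a summed level of 104.4 to 246.8 in PBS and 128.0 to 230.4 with doxorubicin. Its mean log2 level was -2.493 to -1.717 in PBS and -0.057 to 1.366 with doxorubicin. All 10 cardiomyocyte markers were below 0 and 0 were called, with a median of -0.33 and sums of 8939 to 13950 in PBS and 7033 to 9954 with doxorubicin. Of the 8 endothelial markers 7 were above 0 and 0 called (median 1.5, sums 45.2 to 110.2 and 89.9 to 132.4). Among 3 measured skeletal muscle markers of 7, Tnni2 was lower at -0.81 ± 0.15 (sums 104.3 to 204.1 and 66.7 to 121.7). The 3 measured erythroid markers of 6 had a median of -2.79, with 0 called (sums 1.28 to 10.6 and 0.239 to 1.27). The part of these markers' cells in the result was not tested.

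In Top2b-/- cells at 72 h, limma called 0 of the 49 genes, with 0% of all genes higher and 0% lower, 429 genes and 0 of the 49 at an unadjusted p under 0.05, and a median of -0.11. The difference of responses at 72 h was called for 0 of the 49 by limma and for 0% of all genes in each direction. There, 1389 genes and 5 of the 49 had an unadjusted p under 0.05. All alternative settings tried gave 0 genes of the 49 in these 3 comparisons without calls.

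Between PBS-treated genotypes, the largest differences of the 49 lay in glycogen and TCA cycle genes and were found at both times: Pygl was higher in Top2b-/- cells, and Stbd1, which tethers glycogen for lysosomal breakdown, and Ogdhl, a homologue of the 2-oxoglutarate dehydrogenase subunit Ogdh, were lower. At 16 h, 4 genes were higher and 10 lower, against 6.77% and 5.68% of all genes, with a median of -0.24 for the 49. These were 3 higher and 1 lower in glycolysis, 1 and 2 in glycogen metabolism, 0 and 5 in the pyruvate dehydrogenase list, and 0 and 2 in the TCA cycle. At 72 h, 1 gene was higher and 2 lower, against 1.07% and 1.08%, with a median of 0.04. These 3 genes were 3 of the 14 called at 16 h and 3 of the 3 called at 72 h, on separate arrays.

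The count at 16 h differed with the arrays and slides used. It was 7 with slide as a block, 4 within slide 1, and 5 to 8 without any 1 of the 6 PBS arrays: 8, 6 and 6 without wild-type replicates 1, 2 and 3, and 5, 5 and 7 without Top2b-/- replicates 1, 2 and 3. At 72 h it was 5 with slide as a block, 4 within slide 3 and 5 without wild-type PBS replicate 4. Fibroblast markers were higher in Top2b-/- PBS cells at 16 h for 4 of 8 measured genes, among them Postn by 2.82 ± 0.42. Their sums were 24.3 to 35.9 in wild-type and 45.7 to 97.4 in Top2b-/- arrays. Of the 8 endothelial markers 2 were lower (sums 45.2 to 67.9 and 37.6 to 45.9), and of the 8 smooth muscle markers 1 was higher and 2 lower (sums 80.1 to 104.5 and 94.1 to 113.9). The 10 cardiomyocyte markers had 9 below 0 and 0 called, with a median of -0.35 and sums of 10840 to 12090 in wild-type and 9146 to 9530 in Top2b-/- arrays, which did not overlap. Of 7 genes listed as skeletal muscle markers 3 were measured and 1 was lower, Ckm at -0.62 ± 0.14, with sums of 222.6 to 263.6 and 143.9 to 177.2. Whether this list tells skeletal from heart muscle in these samples was not tested. All 8 measured macrophage markers of 9 were above 0 and 0 were called, with sums of 9.003 to 14.1 and 10.3 to 16.3. The part of any of these in the result was not tested.

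**Figure D2:**
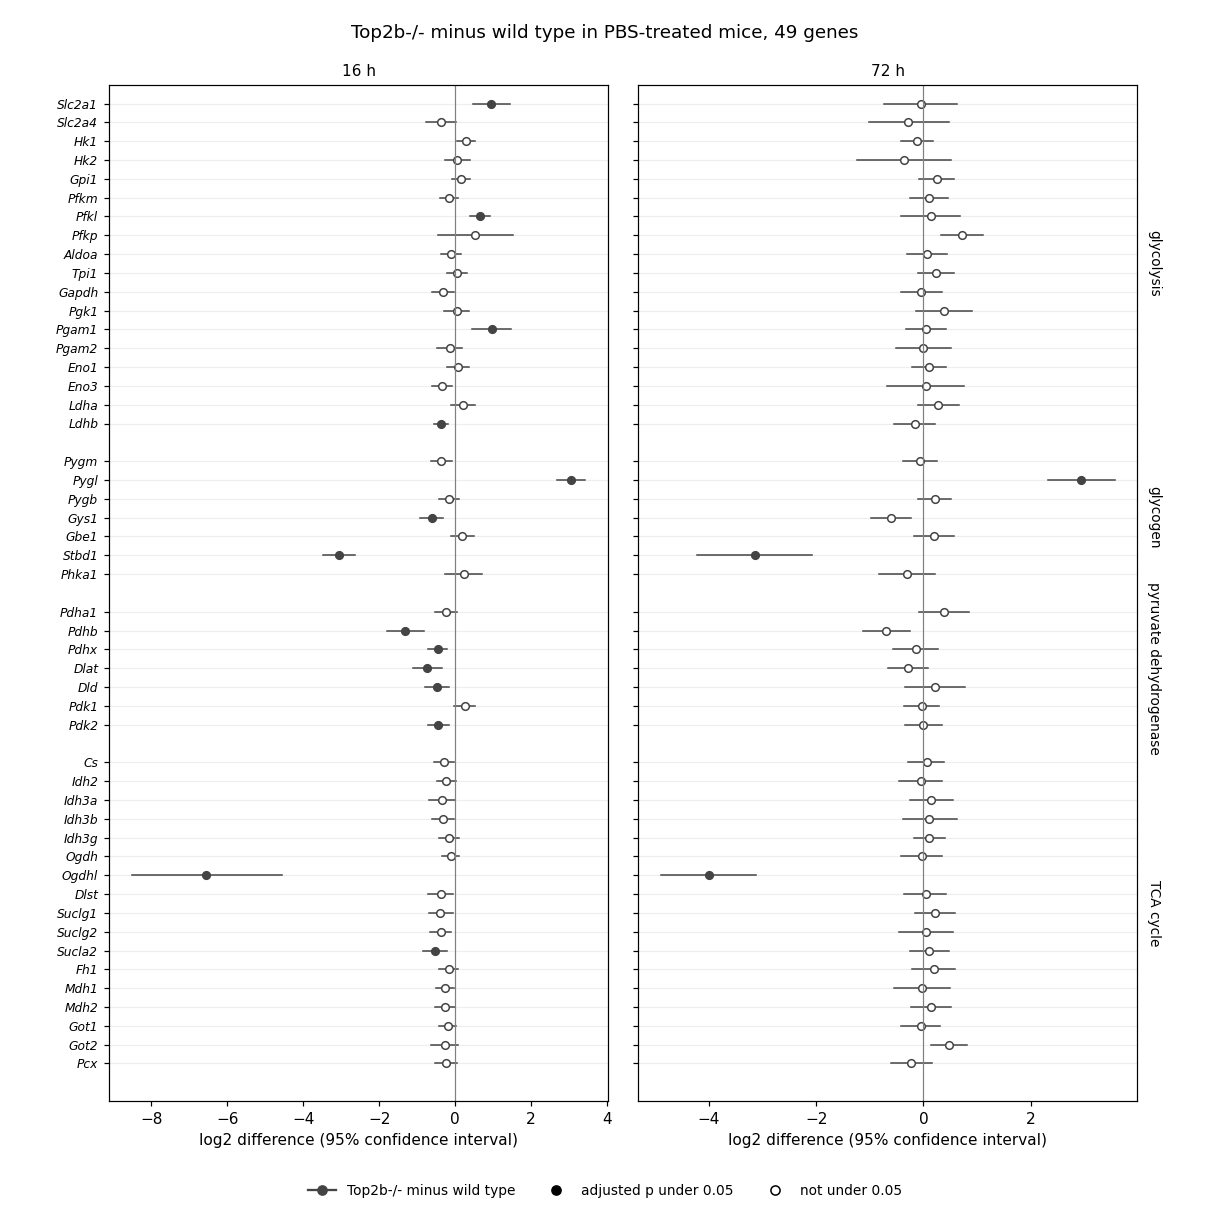
Log2 difference between Top2b-/- and wild-type cardiomyocytes of PBS-treated mice for the 49 genes, with 95% confidence intervals, at 16 h (left) and 72 h (right, on a narrower scale). Filled points have an adjusted p under 0.05. Pygl, Stbd1 and Ogdhl stand apart at both times, and the Ogdhl value of the Top2b-/- group is below background.

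Glucose uptake was represented by 2 transporters. Slc2a4 (GLUT4) is the insulin-responsive transporter of muscle and heart. At 16 h its level was 8.08, 7.93 and 7.99 in wild-type PBS replicates 1, 2 and 3 and 7.45, 7.34 and 6.70 with doxorubicin, 7.60, 7.61 and 7.67 in Top2b-/- PBS and 7.51, 7.81 and 7.81 with doxorubicin. The 3 treated wild-type arrays lay below all others, replicate 3 lowest. The wild-type difference was -0.84 ± 0.18 (adjusted p = 0.00715), a 1.79-fold lower signal, against 0.08 ± 0.18 in Top2b-/- cells, and the difference of the 2 responses was 0.92 ± 0.26 (adjusted p = 0.0449). That last call was lost in 8 of 12 fits that left out 1 array. The 72 h levels were 8.34, 8.25 and 7.62 for wild-type PBS replicates 2, 3 and 4, 7.68, 6.17 and 7.30 with doxorubicin, 7.82, 7.87 and 7.69 in Top2b-/- PBS and 7.74, 7.74 and 7.49 with doxorubicin. The treated wild-type arrays spread widely, and the difference of -1.02 ± 0.33 had an adjusted p of 0.103.

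Slc2a1 (GLUT1), the basal transporter, had levels of 1.74, 1.51 and 1.74 in wild-type PBS at 16 h, 2.07, 1.65 and 2.28 with doxorubicin, 2.67, 2.63 and 2.55 in Top2b-/- PBS and 3.09, 2.60 and 2.19 with doxorubicin. It was 0.95 ± 0.22 higher in Top2b-/- than in wild-type PBS cells (adjusted p = 0.0212), a call lost in 6 of 12 fits without 1 array. Doxorubicin did not move it past the threshold in either genotype (0.34 ± 0.22 and 0.01 ± 0.22). By 72 h the genotypes overlapped, with 2.24, 1.56 and 1.34 in wild-type and 1.77, 1.71 and 1.51 in Top2b-/- PBS arrays, 2.21, 1.5 and 1.69 in treated wild-type and 2.55, 1.65 and 1.68 in treated Top2b-/- arrays.

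Hexokinases trap glucose as glucose 6-phosphate. Hk2, the hexokinase typical of insulin-sensitive muscle, had levels at 16 h of 5.08, 4.98 and 4.98 in wild-type PBS, 4.36, 3.86 and 3.88 with doxorubicin, 5.18, 5.07 and 4.97 in Top2b-/- PBS and 4.90, 5.05 and 5.17 with doxorubicin. Only the treated wild-type arrays were apart from the rest, and all 3 were lower. The wild-type difference of -0.98 ± 0.15 had the smallest adjusted p of the 18 glycolysis genes under doxorubicin (0.00112), while the Top2b-/- difference was -0.03 ± 0.15 and the difference of responses 0.94 ± 0.21 (adjusted p = 0.0191). Wild-type PBS levels at 72 h were 5.56, 4.98 and 4.46 and the treated ones 4.46, 2.97 and 3.54, and the difference of -1.34 ± 0.40 was not called (adjusted p = 0.0825). With slide as a block it was called (adjusted p = 0.0327). Top2b-/- arrays at 72 h had 4.97, 4.75 and 4.20 in PBS and 4.96, 4.64 and 4.22 with doxorubicin.

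Hk1, the hexokinase of most tissues, has 3 measured probes, and they did not move together. The start of each 60-base probe is shown, 30 bases from its 5′ end, since the choice of probe sets the direction of the result. Positions are those of the array's own annotation (mm9), and no gene annotation of that build was used to place a probe in an exon or a UTR.

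Hk1 probe A_55_P2037398: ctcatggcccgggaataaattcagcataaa
Hk1 probe A_55_P2118843: aaggaactgtcaccaaagtgtaccgtgtcc
Hk1 probe A_55_P2027999: ggaatctcccatcgctttagtgagccattg

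The first and brightest is placed at chr5:22118404-22118463, minus strand, although Hk1 lies on chromosome 10 in the RefSeq gene table of assembly GRCm38.p6. The second is at chr10:61732717-61732776 and the third at chr10:61731856-61731915, both minus strand. Through the chromosome 5 probe, levels at 16 h were 7.23, 7.05 and 7.41 in wild-type PBS and 7.49, 7.61 and 7.60 with doxorubicin, a rise of 0.34 ± 0.11 (adjusted p = 0.0417) that was lost in 10 of 12 fits without 1 array. Top2b-/- arrays had 7.55, 7.47 and 7.52 in PBS and 7.51, 7.45 and 7.45 with doxorubicin. P-values that compare probes of a gene come from a limma fit of all kept probes and are adjusted over probes, which gives 0.0458 for the chromosome 5 probe. The chromosome 10 probes gave -0.94 (adjusted p = 0.00256) and -0.77 (adjusted p = 0.00385) for the same wild-type comparison, a fall through both. For these probes the difference of responses was 0.92 (adjusted p = 0.0328) and 0.96 (adjusted p = 0.0177). The 3 probes at 72 h gave wild-type differences of 0.11, 0.17 and -0.03, with adjusted p-values of 0.668, 0.675 and 0.946. Levels through the chromosome 5 probe were then 7.40, 7.20 and 7.06 in wild-type PBS, 7.35, 7.28 and 7.36 with doxorubicin, 7.07, 7.01 and 7.22 in Top2b-/- PBS and 7.32, 7.10 and 7.18 with doxorubicin. The direction of Hk1 in the wild type at 16 h thus differs between its probes, and of the 49 probes used 45 lie on their gene's own chromosome. The other probes off it are those used for Eno1, Gapdh and Pgk1.

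**Figure D3:**
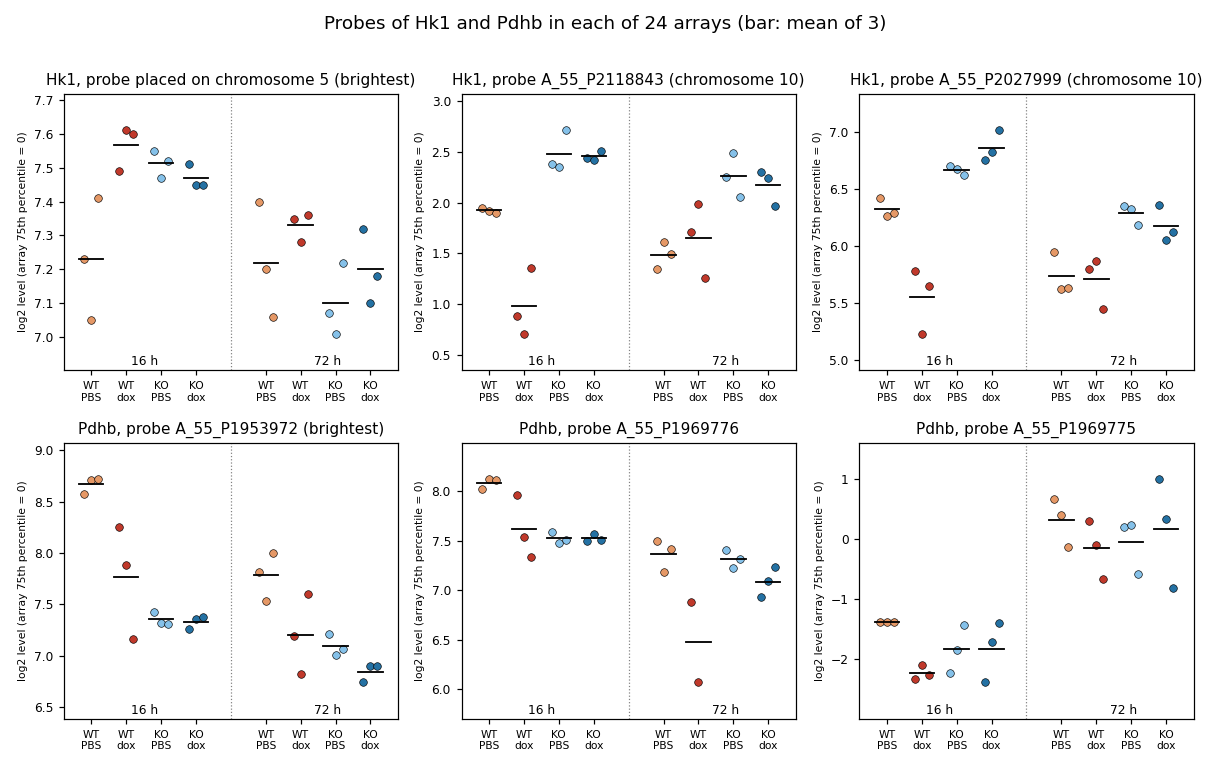
Log2 level through the 3 measured probes of Hk1 (top) and of Pdhb (bottom) on each of 24 arrays, by group (WT wild type, KO Top2b-/-, dox doxorubicin), with the mean of 3 as a bar. At 16 h the treated wild-type arrays are above the wild-type PBS arrays through the Hk1 probe placed on chromosome 5. Through both chromosome 10 probes they are below them.

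Phosphofructokinase commits sugar to glycolysis and has muscle (Pfkm), liver (Pfkl) and platelet (Pfkp) subunits. Pfkl levels at 16 h were 2.79, 2.74 and 2.75 in wild-type PBS, 2.10, 2.17 and 1.87 with doxorubicin, 3.43, 3.32 and 3.51 in Top2b-/- PBS and 3.23, 3.45 and 3.42 with doxorubicin. The 3 treated wild-type arrays were lowest and all 6 Top2b-/- arrays were above all 6 wild-type arrays. It fell by 0.71 ± 0.12 in the wild type (adjusted p = 0.00166) and was 0.66 ± 0.12 higher in Top2b-/- than wild-type PBS cells (adjusted p = 0.00579). Both comparisons use the same wild-type PBS arrays. The genotype call was lost within slide 1 (adjusted p = 0.0717) and with the Ddx3y signal as a covariate. The difference of responses of Pfkl was 0.66 ± 0.16 (adjusted p = 0.0292), lost in 7 of 12 fits without 1 array. Levels at 72 h were 3.1, 3.60 and 2.71 with PBS and 2.72, 2.63 and 2.17 with doxorubicin in the wild type and 3.1, 3.35 and 3.37 with PBS and 2.91, 3.54 and 3.24 with doxorubicin in Top2b-/- cells, and no comparison of it was called.

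Pfkp levels at 16 h were 2.33, 2.83 and 2.95 in wild-type PBS and 2.59, 0.55 and 0.72 with doxorubicin. The difference of -1.41 ± 0.44 (adjusted p = 0.0358) came from replicates 2 and 3, while replicate 1, the array with the Ddx3y signal, lay within the PBS range. Among arrays with that signal the difference was -0.11 (adjusted p = 0.752), and the call was lost in 8 of 12 fits without 1 array. Top2b-/- levels were 3.21, 3.30 and 3.19 in PBS and 3.32, 3.25 and 2.86 with doxorubicin. At 72 h they were 1.32, 1.29 and 1.92 with PBS and 1.56, 1.68 and 1.5 with doxorubicin in the wild type and 2.15, 2.32 and 2.23 with PBS and 2.26, 2.59 and 2.45 with doxorubicin in Top2b-/- cells, and the 6 Top2b-/- arrays were above all 6 wild-type arrays. The genotype difference in PBS, 0.72 ± 0.18, had an adjusted p of 0.0719, and of 0.0471 with slide as a block.

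Pfkm, the muscle subunit, was not called in any comparison. Its levels at 16 h were 7.98, 8.06 and 8.02 with PBS and 7.95, 7.77 and 7.58 with doxorubicin in the wild type and 7.92, 7.77 and 7.87 with PBS and 7.85, 7.87 and 7.91 with doxorubicin in Top2b-/- cells. At 72 h they were 7.89, 7.98 and 7.69 with PBS and 7.68, 7.19 and 7.17 with doxorubicin, a difference of -0.51 ± 0.16 (adjusted p = 0.0938) in which the 3 treated wild-type arrays did not overlap their controls, and 7.98, 8.03 and 7.88 with PBS and 7.73, 7.85 and 7.69 with doxorubicin in Top2b-/- cells.

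Phosphoglycerate mutase moves the phosphate of phosphoglycerate in the lower part of glycolysis, and Pgam2 is its muscle form. At 16 h Pgam2 levels were 8.18, 8.38 and 8.40 in wild-type PBS, 7.92, 7.47 and 7.33 with doxorubicin, 8.18, 8.09 and 8.24 in Top2b-/- PBS and 8.21, 8.09 and 8.22 with doxorubicin, and at 72 h 8.26, 8.33 and 7.82 in wild-type PBS, 7.44, 6.52 and 6.99 in wild-type doxorubicin, 8.07, 8.12 and 8.22 in Top2b-/- PBS and 7.67, 8.11 and 8.01 in Top2b-/- doxorubicin arrays. The treated wild-type arrays were the lowest 3 at each time. The wild-type differences were -0.75 ± 0.15 (adjusted p = 0.00461) and -1.16 ± 0.23 (adjusted p = 0.0382). The call at 72 h was lost in 9 of 12 fits without 1 array, as was that of Pdhx. The Top2b-/- differences were 0.01 ± 0.15 and -0.21 ± 0.23. Its difference of responses was called at 16 h (0.75 ± 0.21, adjusted p = 0.0453), lost in 10 of 12 fits without 1 array, and was 0.95 ± 0.33 at 72 h (adjusted p = 0.69).

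Pgam1, the widely expressed mutase, had 16 h levels of 4.82, 5.11 and 5.37 in wild-type PBS, 3.85, 4.89 and 4.45 with doxorubicin, 6.03, 6.04 and 6.12 in Top2b-/- PBS and 5.65, 5.89 and 5.90 with doxorubicin. Its wild-type difference of -0.70 ± 0.23 (adjusted p = 0.0452) came with overlapping groups and was lost in 10 of 12 fits without 1 array. All 6 Top2b-/- arrays were above the wild-type ones, by 0.97 ± 0.23 in PBS (adjusted p = 0.0239), a call lost in 5 of 12 fits without 1 array, with slide as a block (adjusted p = 0.0765) and within slide 1 (adjusted p = 0.149). At 72 h the treated wild-type levels 4.45, 4.43 and 4.48 were below the PBS levels 5.38, 5.15 and 4.93, with a difference of -0.70 ± 0.17 that was not called (adjusted p = 0.0547). Top2b-/- arrays had 4.96, 5.25 and 5.38 in PBS and 5.55, 5.14 and 5.31 with doxorubicin.

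Enolase and lactate dehydrogenase close the pathway. Eno3, the muscle enolase, had 16 h levels of 9.49, 9.46 and 9.53 with PBS and 9.44, 9.38 and 9.05 with doxorubicin in the wild type and 9.21, 9.13 and 9.10 with PBS and 9.11, 9.21 and 9.13 with doxorubicin in Top2b-/- cells. At 72 h treated wild-type replicate 3 stood far below the rest, with 9.44, 9.42 and 8.86 in PBS and 8.86, 7.38 and 8.54 with doxorubicin, and the difference of -0.98 ± 0.32 had an adjusted p of 0.104. Top2b-/- arrays had 9.40, 9.15 and 9.28 in PBS and 9.06, 9.10 and 9.16 with doxorubicin. Eno1, through a probe placed on chromosome 2 rather than its own chromosome 4, had 16 h levels of 6.08, 6.06 and 6.07 in wild-type PBS, 6.28, 5.83 and 5.80 in wild-type doxorubicin, 6.15, 6.17 and 6.11 in Top2b-/- PBS and 6.17, 6.35 and 6.16 in Top2b-/- doxorubicin arrays. Its 72 h levels were 5.80, 6.11 and 5.70 in wild-type PBS, 5.67, 5.76 and 5.57 in wild-type doxorubicin, 5.94, 6.06 and 5.92 in Top2b-/- PBS and 5.74, 6.07 and 5.95 in Top2b-/- doxorubicin arrays, and no comparison was called.

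Ldhb, the lactate dehydrogenase subunit that prevails in heart, was lower in Top2b-/- than wild-type PBS cells at 16 h, with a difference of -0.38 ± 0.09 (adjusted p = 0.0199, lost in 6 of 12 fits without 1 array). Levels were 9.24, 9.25 and 9.34 with PBS and 9.31, 9.30 and 9.30 with doxorubicin in the wild type and 8.88, 8.89 and 8.93 with PBS and 8.96, 8.99 and 9.0 with doxorubicin in Top2b-/- cells, with no overlap of the genotypes. At 72 h they overlapped, at 9.27, 9.24 and 8.85 in wild-type PBS, 9.06, 8.53 and 8.92 in wild-type doxorubicin, 8.95, 8.93 and 9.01 in Top2b-/- PBS and 9.04, 8.83 and 8.88 in Top2b-/- doxorubicin arrays. Ldha, the subunit of glycolytic muscle, had 8.90, 9.02 and 9.22 in wild-type PBS, 9.11, 8.76 and 8.71 in wild-type doxorubicin, 9.31, 9.28 and 9.15 in Top2b-/- PBS and 9.26, 9.45 and 9.23 in Top2b-/- doxorubicin arrays at 16 h. Its levels at 72 h were 8.94, 8.68 and 8.49 in wild-type PBS, 8.51, 7.89 and 8.12 in wild-type doxorubicin, 9.02, 8.89 and 9.02 in Top2b-/- PBS and 8.87, 8.92 and 8.92 in Top2b-/- doxorubicin arrays, and it was called in no comparison. The other 5 glycolysis genes, Gpi1, Aldoa, Tpi1, Gapdh and Pgk1, were called in none either. Their wild-type doxorubicin differences ran from -0.34 (Pgk1, phosphoglycerate kinase) to 0.00 (Aldoa, the muscle aldolase) at 16 h and from -0.42 (Pgk1) to -0.20 (Aldoa) at 72 h.

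Glycogen synthase 1, Gys1, builds glycogen in muscle. At 16 h its level was 4.52, 4.47 and 4.63 in wild-type PBS, 3.68, 3.55 and 3.88 with doxorubicin, 3.92, 3.84 and 4.0 in Top2b-/- PBS and 3.98, 4.40 and 4.23 with doxorubicin. Wild-type PBS arrays were above all others, and the ranges of treated wild-type and Top2b-/- PBS arrays overlapped. With doxorubicin it fell by 0.84 ± 0.13 in the wild type (adjusted p = 0.00147), while the Top2b-/- difference was 0.29 ± 0.13 (95% interval -0.01 to 0.58). The difference of responses, 1.12 ± 0.19, had an adjusted p of 0.00585, and its call was kept in all 12 fits that left out 1 array but not with slide as a block (adjusted p = 0.0668). In PBS it was -0.62 ± 0.13 in Top2b-/- against wild-type cells (adjusted p = 0.0146), a call lost in 3 of 12 fits without 1 array and within slide 1 (adjusted p = 0.0625). Its second probe gave -0.83 for the wild-type response and -0.32 (adjusted p = 0.197 over all probes) for the genotype difference. Levels at 72 h were 4.58, 4.73 and 4.18 in wild-type PBS, 4.12, 4.05 and 4.0 in wild-type doxorubicin, 3.88, 4.06 and 3.74 in Top2b-/- PBS and 4.13, 3.92 and 3.76 in Top2b-/- doxorubicin arrays, and the wild-type difference of -0.44 ± 0.17 was not called (adjusted p = 0.146).

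**Figure D4:**
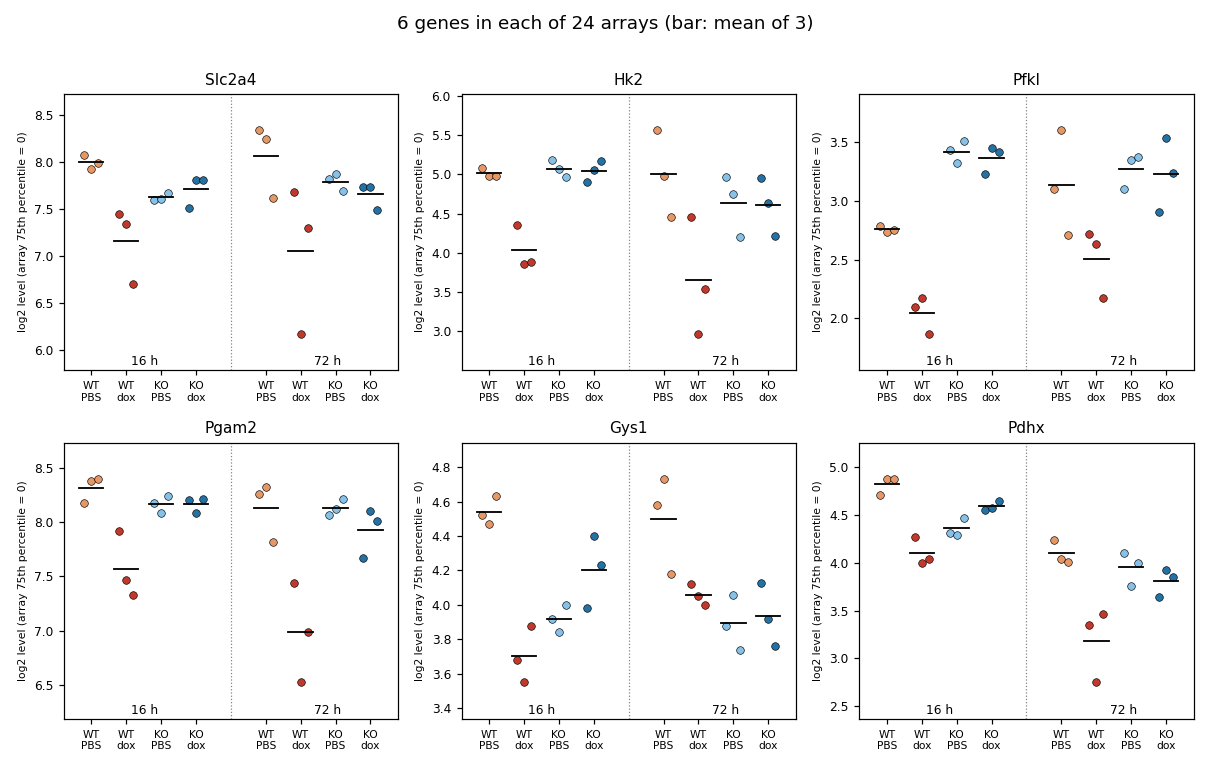
Log2 level of Slc2a4, Hk2, Pfkl, Pgam2, Gys1 and Pdhx on each of 24 arrays, by group (WT wild type, KO Top2b-/-, dox doxorubicin), with the mean of 3 as a bar. These 6 genes fell in the wild type at 16 h and had a called difference of responses above 0 at that time. At 16 h the doxorubicin and PBS arrays of Top2b-/- cells overlap in all but Pdhx.

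Glycogen phosphorylase releases glucose from glycogen and has muscle (Pygm), liver (Pygl) and brain (Pygb) forms. Pygl was low in the wild type at 16 h, with 1.11, 1.32 and 1.17 in PBS and 1.49, 1.43 and 1.72 with doxorubicin, and high in Top2b-/- cells, with 4.16, 4.16 and 4.43 in PBS and 3.63, 4.10 and 3.43 with doxorubicin. The genotype difference in PBS was 3.05 ± 0.17 (adjusted p = 7.1e-06), an 8.28-fold higher signal. At 72 h the wild-type arrays had 1.08, 0.92 and 0.64 with PBS and 1.07, 1.01 and 1.33 with doxorubicin and the Top2b-/- arrays 4.25, 3.29 and 3.97 with PBS and 4.10, 3.18 and 3.71 with doxorubicin, a difference of 2.95 ± 0.28 (adjusted p = 0.000344). Every Top2b-/- array was above every wild-type array at each time, and both calls were kept in all 12 fits without 1 array. The responses at 16 h had opposite signs, 0.35 ± 0.17 in the wild type and -0.53 ± 0.17 in Top2b-/- cells, neither called, and their difference of -0.87 ± 0.24 was called (adjusted p = 0.045) but lost in 9 of 12 fits without 1 array.

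Pygm and Pygb were not called in any comparison. Pygm levels at 16 h were 7.06, 7.02 and 7.04 in wild-type PBS, 7.06, 6.74 and 6.81 in wild-type doxorubicin, 6.69, 6.61 and 6.72 in Top2b-/- PBS and 6.70, 6.96 and 7.08 in Top2b-/- doxorubicin arrays, and at 72 h 6.83, 7.18 and 6.91 in wild-type PBS, 6.76, 6.67 and 6.54 in wild-type doxorubicin, 6.84, 7.06 and 6.83 in Top2b-/- PBS and 6.82, 6.95 and 6.70 in Top2b-/- doxorubicin arrays. Pygb had 5.73, 5.99 and 5.69 in wild-type PBS, 5.60, 5.65 and 5.74 in wild-type doxorubicin, 5.75, 5.52 and 5.64 in Top2b-/- PBS and 5.77, 5.85 and 5.74 in Top2b-/- doxorubicin arrays at 16 h and 5.34, 5.33 and 5.40 in wild-type PBS, 5.60, 5.52 and 5.41 in wild-type doxorubicin, 5.57, 5.70 and 5.42 in Top2b-/- PBS and 5.79, 5.43 and 5.43 in Top2b-/- doxorubicin arrays at 72 h. Their PBS genotype differences were -0.37 and -0.17 at 16 h and -0.06 and 0.21 at 72 h.

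Stbd1, the starch-binding protein that carries glycogen to lysosomes, ran the other way. Wild-type levels at 16 h were 2.63, 2.54 and 2.78 in PBS and 1.86, 2.32 and 2.38 with doxorubicin, and Top2b-/- levels -0.38, -0.32 and -0.51 with PBS and -0.28, -0.78 and -0.95 with doxorubicin. At 72 h they were 1.73, 1.41 and 1.77 with PBS and 0.89, 2.28 and 2.08 with doxorubicin in the wild type and -1.72, -1.92 and -0.87 with PBS and -2.71, -2.16 and -0.91 with doxorubicin in Top2b-/- cells. The genotypes did not overlap at either time, with PBS differences of -3.06 ± 0.19 (adjusted p = 1.26e-05) and -3.15 ± 0.48 (adjusted p = 0.0071). Both calls were kept in all 12 fits without 1 array. The call at 72 h was lost in the limma fit of the arrays without the Ddx3y signal (adjusted p = 0.0742). Doxorubicin moved it past the threshold in neither genotype. Gbe1, the branching enzyme, had 16 h levels of 4.23, 4.51 and 4.68 with PBS and 4.29, 4.05 and 4.14 with doxorubicin in the wild type and 4.72, 4.68 and 4.60 with PBS and 4.68, 4.68 and 4.40 with doxorubicin in Top2b-/- cells. Its 72 h levels were 4.12, 3.68 and 3.79 in wild-type PBS, 3.64, 3.65 and 3.44 in wild-type doxorubicin, 4.07, 3.87 and 4.23 in Top2b-/- PBS and 3.79, 3.91 and 4.21 in Top2b-/- doxorubicin arrays. Neither it nor Phka1, the muscle phosphorylase kinase subunit, was called in any comparison.

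**Figure D5:**
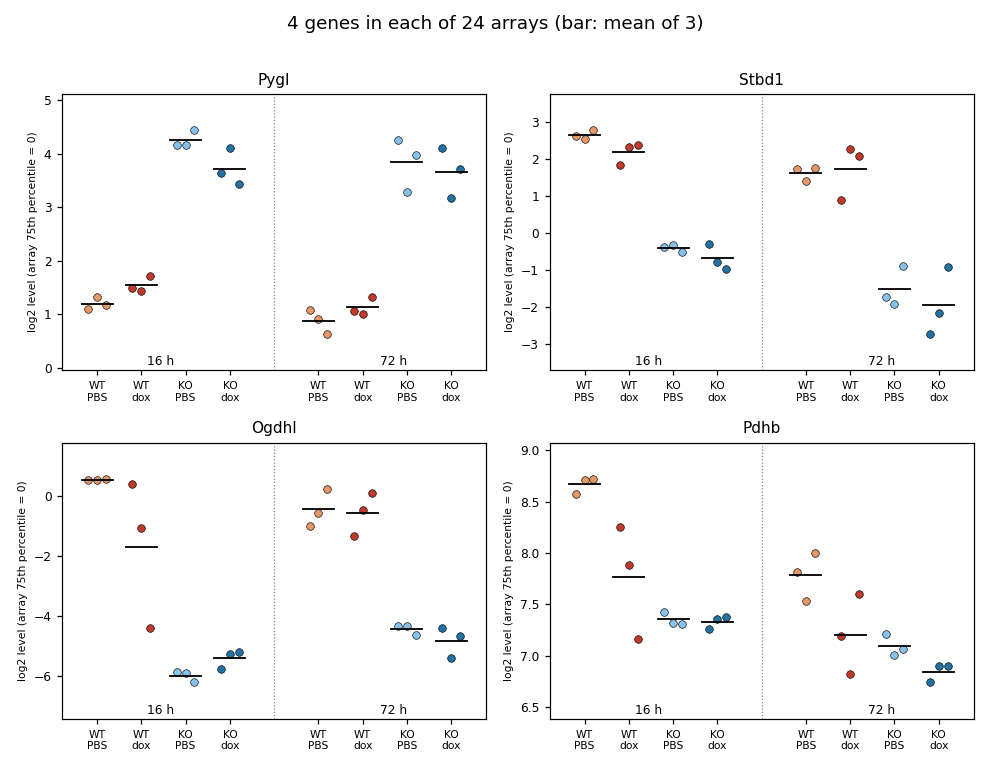
Log2 level of Pygl, Stbd1, Ogdhl and Pdhb on each of 24 arrays, by group (WT wild type, KO Top2b-/-, dox doxorubicin), with the mean of 3 as a bar. For Pygl and Stbd1 all Top2b-/- arrays are apart from all wild-type arrays at each time. Treated wild-type arrays of Ogdhl spread from 0.40 to -4.39 at 16 h.

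The pyruvate dehydrogenase complex is built of the E1 subunits Pdha1 and Pdhb, the E2 acetyltransferase Dlat, the E3 dehydrogenase Dld and the E3-binding protein Pdhx. At 16 h Pdhx levels were 4.71, 4.87 and 4.87 in wild-type PBS, 4.27, 4.0 and 4.04 with doxorubicin, 4.31, 4.29 and 4.47 in Top2b-/- PBS and 4.55, 4.57 and 4.64 with doxorubicin. In the wild type it fell by 0.71 ± 0.11 (adjusted p = 0.00132), the Top2b-/- difference was 0.23 ± 0.11, and the difference of responses 0.94 ± 0.16 (adjusted p = 0.00562) was kept in all 12 fits without 1 array but not with slide as a block (adjusted p = 0.0717). In PBS, Top2b-/- cells were -0.46 ± 0.11 against the wild type (adjusted p = 0.0233), a call lost in 4 of 12 fits without 1 array and within slide 1 (adjusted p = 0.114). At 72 h the levels were 4.24, 4.04 and 4.01 in wild-type PBS, 3.35, 2.75 and 3.46 in wild-type doxorubicin, 4.10, 3.76 and 4.0 in Top2b-/- PBS and 3.64, 3.92 and 3.85 in Top2b-/- doxorubicin arrays. The wild-type difference was then -0.91 ± 0.19 (adjusted p = 0.0432), with the treated wild-type arrays below all others.

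Pdhb levels at 16 h were 8.58, 8.71 and 8.72 in wild-type PBS, 8.25, 7.88 and 7.16 with doxorubicin, 7.43, 7.32 and 7.31 in Top2b-/- PBS and 7.26, 7.36 and 7.38 with doxorubicin. The treated wild-type arrays spread between the other groups, replicate 3 below all Top2b-/- arrays. The wild-type difference was -0.90 ± 0.22 (adjusted p = 0.0123) and the PBS genotype difference -1.31 ± 0.22 (adjusted p = 0.0044), 2 comparisons that share the wild-type PBS arrays. Both calls were lost within slide 1 (adjusted p = 0.0545 and 0.0591) and with the Ddx3y signal as a covariate. The 72 h levels were 7.82, 7.53 and 8.0 in wild-type PBS, 7.19, 6.82 and 7.60 in wild-type doxorubicin, 7.21, 7.01 and 7.07 in Top2b-/- PBS and 6.74, 6.90 and 6.90 in Top2b-/- doxorubicin arrays, and neither difference was called (-0.58 ± 0.20 and -0.69 ± 0.20). These values come from 1 of 2 bright Pdhb probes that share 15 bases, shown in capitals: the last 30 bases of the probe used and the first 30 of its neighbour.

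Pdhb probe A_55_P1953972: ctaagaagtatattaTCTACATTTGCTGTT
Pdhb probe A_55_P1969776: TCTACATTTGCTGTTtaattgttttgataa

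The first lies at chr14:8998548-8998607 and the second at chr14:8998505-8998562 (mm9, minus strand). Although they overlap, in the fit of all kept probes the PBS genotype difference at 16 h was -0.55 (adjusted p = 0.0344) through the second, and at 72 h -0.05 (adjusted p = 0.968) against -0.69 (adjusted p = 0.127) through the first. The wild-type response at 16 h was -0.47 (adjusted p = 0.0359) through the second. The directions at 16 h were thus shared and the sizes were not. Pdhb, Ogdhl and Sucla2 have their probes on chromosome 14, as has Top2b, at distances of 8.3, 15.9 and 56.7 Mb from the Top2b probe. Of all genes tested on that chromosome 14% were called between the PBS genotypes at 16 h and 1.55% at 72 h, against 12.4% and 2.17% of genes elsewhere.

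Dlat was lower in Top2b-/- PBS cells at 16 h (-0.73 ± 0.17, adjusted p = 0.023, lost in 5 of 12 fits without 1 array). At 72 h it fell with doxorubicin in the wild type (difference -0.98 ± 0.17, adjusted p = 0.0277), from 5.36, 5.11 and 5.23 to 4.57, 3.93 and 4.27, without overlap, while Top2b-/- levels were 5.0, 4.93 and 4.90 in PBS and 4.57, 4.79 and 4.78 with doxorubicin. That call was lost in 6 of 12 fits without 1 array. Dld, which the complex shares with other 2-oxoacid dehydrogenases, was also lower in Top2b-/- PBS cells at 16 h (-0.48 ± 0.14, adjusted p = 0.0484, lost in 8 of 12), and Pdha1 was called in no comparison.

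The kinases phosphorylate and silence E1. Pdk1 rose with doxorubicin in the wild type at 16 h by 0.51 ± 0.12 (adjusted p = 0.0108), from 1.45, 1.78 and 1.81 to 2.21, 2.09 and 2.27, and the call was kept in all 12 fits without 1 array, though within slide 1 its adjusted p was 0.0525. Top2b-/- levels were 2.00, 1.96 and 1.85 in PBS and 2.08, 2.12 and 2.01 with doxorubicin, of which the PBS arrays lay between the wild-type groups. At 72 h the 4 groups overlapped, at 1.97, 1.84 and 1.57 in wild-type PBS, 1.75, 1.68 and 1.55 in wild-type doxorubicin, 1.72, 1.67 and 1.89 in Top2b-/- PBS and 1.74, 1.59 and 1.87 in Top2b-/- doxorubicin arrays. Pdk2 was -0.45 ± 0.12 in Top2b-/- against wild-type PBS cells at 16 h (adjusted p = 0.0413, lost in 7 of 12 fits). Its levels were 6.00, 6.03 and 5.95 in wild-type PBS, 6.07, 5.83 and 5.92 in wild-type doxorubicin, 5.60, 5.39 and 5.64 in Top2b-/- PBS and 5.49, 5.71 and 5.84 in Top2b-/- doxorubicin arrays at 16 h and 5.82, 6.11 and 5.79 in wild-type PBS, 5.72, 5.60 and 5.64 in wild-type doxorubicin, 5.78, 6.04 and 5.90 in Top2b-/- PBS and 6.10, 5.89 and 5.61 in Top2b-/- doxorubicin arrays at 72 h.

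Pcx, which carboxylates pyruvate to oxaloacetate, rose in the wild type at 16 h from 3.27, 3.29 and 3.35 to 4.27, 3.82 and 4.17, by 0.78 ± 0.14 (adjusted p = 0.0023), without overlap and in all 12 fits without 1 array. Top2b-/- levels were 3.05, 3.04 and 3.09 in PBS and 3.07, 3.34 and 3.40 with doxorubicin, a difference of 0.21 ± 0.14, and the difference of responses, -0.57 ± 0.19, was not called (adjusted p = 0.079). At 72 h the wild-type levels 3.60, 3.46 and 3.0 with PBS and 3.63, 3.40 and 3.33 with doxorubicin overlapped, and the Top2b-/- levels were 3.22, 3.07 and 3.08 with PBS and 3.21, 3.22 and 2.96 with doxorubicin. Cs, citrate synthase, joins oxaloacetate with acetyl-CoA. It fell in the wild type at 72 h (difference -0.69 ± 0.15, adjusted p = 0.045, lost in 9 of 12 fits without 1 array), from 9.21, 9.09 and 8.86 to 8.65, 8.16 and 8.27, with 9.17, 9.05 and 9.11 with PBS and 8.86, 8.87 and 8.88 with doxorubicin in Top2b-/- cells. At 16 h Cs had 9.51, 9.59 and 9.64 in wild-type PBS, 9.54, 9.33 and 9.10 with doxorubicin, 9.36, 9.29 and 9.22 in Top2b-/- PBS and 9.25, 9.32 and 9.34 with doxorubicin.

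The 2-oxoglutarate dehydrogenase complex resembles pyruvate dehydrogenase and holds Ogdh or its homologue Ogdhl, the transferase Dlst and Dld. Dlst fell in the wild type at 16 h (difference -0.59 ± 0.15, adjusted p = 0.0134), from 6.78, 7.01 and 6.95 to 6.65, 6.14 and 6.16, a call lost in 1 of 12 fits without 1 array (wild-type PBS replicate 2), within slide 1 (adjusted p = 0.0545) and with the Ddx3y signal as a covariate. Top2b-/- levels were 6.51, 6.52 and 6.56 in PBS and 6.40, 6.54 and 6.65 with doxorubicin. At 72 h it had 6.40, 6.34 and 6.33 in wild-type PBS, 6.07, 5.33 and 5.58 in wild-type doxorubicin, 6.50, 6.43 and 6.25 in Top2b-/- PBS and 6.07, 6.26 and 6.21 in Top2b-/- doxorubicin arrays, and its wild-type difference of -0.70 ± 0.18 was not called (adjusted p = 0.0614).

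Ogdhl was measured in the wild type and was not well above background on the Top2b-/- PBS arrays. At 16 h levels were 0.52, 0.54 and 0.56 in wild-type PBS and -5.88, -5.91 and -6.22 in Top2b-/- PBS, so the wild-type signal was at least 21.2-fold higher (adjusted p = 0.00163 for the measured difference). At 72 h they were -0.99, -0.56 and 0.24 in wild-type PBS and -4.33, -4.35 and -4.64 in Top2b-/- PBS, at least 12.2-fold (adjusted p = 0.000476 for the measured difference). The bound sets the wild-type mean against, on each Top2b-/- array, the higher of the probe's own level and the lowest level of any probe well above background. The limma p-values come from the measured levels and do not test the bounds. The probe passed the filter through wild-type arrays. Treated Top2b-/- arrays had -5.78, -5.27 and -5.19 at 16 h and -4.42, -5.39 and -4.68 at 72 h. Treated wild-type arrays at 16 h differed widely, at 0.40, -1.07 and -4.39 in replicates 1, 2 and 3, and the response was not called (adjusted p = 0.0873), while at 72 h they had -1.33, -0.47 and 0.10. The probe spans chr14:33157957-33158113 (mm9, plus strand), more bases than its 60, and begins as shown, because it is the only gene of the 49 with a group below background.

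Ogdhl probe A_51_P163354: tcggatgcctacccagtgttcactgaggac

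Ogdh, in contrast, was called in no comparison, with 16 h levels of 8.85, 8.91 and 8.99 in wild-type PBS, 8.92, 8.84 and 8.67 in wild-type doxorubicin, 8.86, 8.78 and 8.74 in Top2b-/- PBS and 8.89, 8.84 and 8.83 in Top2b-/- doxorubicin arrays, and 72 h levels of 8.98, 8.96 and 8.53 in wild-type PBS, 8.59, 8.18 and 8.20 in wild-type doxorubicin, 8.78, 8.84 and 8.76 in Top2b-/- PBS and 8.73, 8.78 and 8.50 in Top2b-/- doxorubicin arrays. Its PBS genotype difference was -0.12 at 16 h (95% interval -0.34 to 0.10) and -0.03 at 72 h (-0.41 to 0.34).

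Succinyl-CoA ligase makes succinate and a nucleoside triphosphate. It has the shared subunit Suclg1 and the ATP- and GTP-specific subunits Sucla2 and Suclg2. Sucla2 was -0.53 ± 0.14 in Top2b-/- against wild-type PBS cells at 16 h (adjusted p = 0.0376, lost in 9 of 12 fits without 1 array), with levels of 8.30, 8.37 and 8.40 in wild-type PBS, 8.47, 8.04 and 7.89 in wild-type doxorubicin, 7.75, 7.88 and 7.85 in Top2b-/- PBS and 7.88, 7.79 and 7.96 in Top2b-/- doxorubicin arrays. At 72 h they were 7.71, 7.50 and 7.76 in wild-type PBS, 7.31, 6.97 and 7.57 in wild-type doxorubicin, 7.65, 7.80 and 7.85 in Top2b-/- PBS and 7.59, 7.65 and 7.66 in Top2b-/- doxorubicin arrays, without a call. Suclg1 had 7.41, 7.64 and 7.62 in wild-type PBS, 7.61, 7.20 and 7.15 in wild-type doxorubicin, 7.16, 7.11 and 7.24 in Top2b-/- PBS and 6.97, 7.25 and 7.11 in Top2b-/- doxorubicin arrays at 16 h and 6.80, 6.73 and 7.18 in wild-type PBS, 6.55, 6.27 and 6.66 in wild-type doxorubicin, 7.0, 7.18 and 7.20 in Top2b-/- PBS and 6.85, 6.93 and 7.12 in Top2b-/- doxorubicin arrays at 72 h. Suclg2 had 3.56, 3.68 and 3.71 in wild-type PBS, 3.87, 3.61 and 3.75 in wild-type doxorubicin, 3.38, 3.24 and 3.20 in Top2b-/- PBS and 3.11, 3.47 and 3.46 in Top2b-/- doxorubicin arrays at 16 h, with 2.80, 2.79 and 3.43 in wild-type PBS, 2.78, 2.67 and 3.13 in wild-type doxorubicin, 2.81, 3.13 and 3.22 in Top2b-/- PBS and 2.70, 2.61 and 3.16 in Top2b-/- doxorubicin arrays at 72 h, and neither of these was called.

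The other 9 genes of the TCA cycle list were called in no comparison: the isocitrate dehydrogenases Idh2, Idh3a, Idh3b and Idh3g, fumarase Fh1, the malate dehydrogenases Mdh1 and Mdh2, and the aspartate aminotransferases Got1 and Got2 of the malate-aspartate shuttle. Their wild-type doxorubicin differences ran from -0.44 (Idh3a, adjusted p = 0.0593) to 0.20 (Got1) at 16 h and from -0.59 (Idh3a) to 0.00 (Idh2) at 72 h. Fh1 on wild-type doxorubicin replicate 4 at 72 h was flagged as an outlier spot and was left missing, so its difference of -0.47 rests on 2 treated arrays. Between the PBS genotypes all 17 genes of the list were below 0 at 16 h, with a median of -0.28, and 2 of them were called. Of all genes 49.1% were above 0 there, with a median of -0.009, and 9 of 10 cardiomyocyte markers were below 0, with a median of -0.35, whose part was not tested. At 72 h 6 of the 17 were below 0, with a median of 0.06.

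Genes of the same pathways outside the 49 were listed too. In the wild type 16 h after doxorubicin 13.7% of all genes were higher and 14.1% lower, which stands beside each count here. Of 18 measured genes of 23 for glucose uptake and glycolysis, 4 were higher and 3 lower in that comparison. Among them Pfkfb3, which makes the phosphofructokinase activator fructose 2,6-bisphosphate, was 2.99 ± 0.66 (adjusted p = 0.00775). The transporter Slc2a3, not well above background in PBS, was at least 2.25-fold higher (adjusted p = 0.00379 for the measured difference, not for the bound). In the gluconeogenesis and pentose phosphate list 2 of 8 measured genes of 12 were higher and 0 lower, the pentose phosphate dehydrogenases G6pdx by 1.06 ± 0.26 (adjusted p = 0.012) and Pgd by 0.46 ± 0.15 (adjusted p = 0.0433). Of 20 measured glycogen genes of 21, 1 was higher and 3 lower: Ppp1r3a, a muscle glycogen-targeting phosphatase subunit, at 0.95 ± 0.22 (adjusted p = 0.00919), and among the lower ones Pgm5 at -0.58 ± 0.12 (adjusted p = 0.00474) and the kinase Gsk3b at -0.62 ± 0.16 (adjusted p = 0.0166). In the pyruvate list 1 of 9 genes was higher and 1 lower, Lias, which makes the lipoate of the E2 subunits, at 0.32 ± 0.10 and Pdpr, the regulatory subunit of pyruvate dehydrogenase phosphatase, at -0.58 ± 0.13. Of 19 TCA cycle and shuttle genes 2 were higher and 3 lower, led by the aspartate-glutamate carrier Slc25a13 at -0.94 ± 0.13 (adjusted p = 0.000788), ATP-citrate lyase Acly at 0.81 ± 0.13 (adjusted p = 0.0016) and Slc25a12, the second aspartate-glutamate carrier, at -0.71 ± 0.18 (adjusted p = 0.0163).

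In Top2b-/- cells 0 of these genes passed the test at either time (limma), as did 0% of all genes. The difference of responses at 16 h was called, among others, for the glucose transporter Slc2a12 at 1.01 ± 0.27, for Pdpr at 0.74 ± 0.18, and for Slc25a13 at 1.11 ± 0.19, Acly at -0.81 ± 0.18 and Slc25a12 at 0.91 ± 0.26.

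Between PBS genotypes at 16 h, 3 companion glucose genes were higher and 3 lower in Top2b-/- cells. Of all genes 6.77% were higher and 5.68% lower there. The lactate exporter Slc16a3 was 2.68 ± 0.45 (adjusted p = 0.00448) and Pfkfb4, which acts as Pfkfb3 does, -1.07 ± 0.22 (adjusted p = 0.0121). The enolase Eno2, not well above background in the wild type, was at least 3.19-fold higher (adjusted p = 0.000527 for the measured difference, not for the bound). The muscle fructose bisphosphatase Fbp2 was lower at -1.22 ± 0.30, 1 of 8 in its list with 0 higher. Of the glycogen genes, the glycogen primer Gyg was higher at 0.81 ± 0.15 and the targeting subunit Ppp1r3b lower at -0.41 ± 0.11. In the pyruvate list 1 was higher and 2 lower, with the phosphatase Pdp2 at -2.03 ± 0.28 (adjusted p = 0.00189), the kinase Pdk3 at 1.41 ± 0.29 (adjusted p = 0.0126) and Pdpr at -0.59 ± 0.13. Among TCA cycle and shuttle genes 1 was higher and 3 lower, with the cytosolic isocitrate dehydrogenase Idh1 at -0.81 ± 0.18, malic enzyme Me2 at 0.65 ± 0.16 and the succinate dehydrogenase subunit Sdhb at -0.44 ± 0.11. At 72 h Pfkfb1, of the same family as Pfkfb3, was lower at -1.23 ± 0.25 (adjusted p = 0.0297).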

How the data were processed

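Cy3-labelled RNA of 24 samples was hybridised to 24 one-colour Agilent arrays. The spot intensity values were extracted by the authors with Agilent Feature Extraction. Its version, 10.7.3.1, and the mm9 build of the probe positions are those of the file headers. The deposited value table was found to hold the ratio of each processed signal to its array's median (SD of the log2 difference at most 1.54e-06). It served as an alternative.

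For each array, log2 of the processed signal was taken and the array's 75th percentile subtracted. Outlier spots were left out, spots of a probe averaged, and a probe kept where some group of that time had it well above background on each of its 3 arrays. The brightest kept probe stood for a gene. Arrays of each time were fitted with limma 3.58.1 in R 4.3.3 (12 arrays, 4 groups), with Benjamini-Hochberg adjustment over 18751 genes at 16 h and 19672 at 72 h. The fit was tested on simulated data. Groups were taken from titles. The number of arrays limits the precision.

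Named with values were the called genes of each list and comparison, at most 6 per direction, those with the smallest adjusted p per list (3 over doxorubicin comparisons, 2 over genotype comparisons) and every isoform pair. Of the pathway genes outside the 49, up to 3 called ones per list and comparison were named, and some are not reported here. The members and lists were chosen with earlier results of these data known. Alternatives changed background correction, scaling, filter, probe choice, slide or replicate block, model, genotype label and Y status, and left out single arrays. The choice of probes by chromosome was added after seeing the data.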

Additional observations from a re-analysis of the deposited data

Results flagged for a closer look

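The difference between the doxorubicin responses of Top2b-/- and wild-type cardiomyocytes at 16 h, tested as an interaction in limma, passed the threshold for 7 of the 49 genes. It was 0.92 for Slc2a4, 0.94 for Hk2, 0.66 for Pfkl, 0.75 for Pgam2, 1.12 for Gys1 and 0.94 for Pdhx on the log2 scale. In each of these genes the wild-type level was lower with doxorubicin, a response that is itself part of the difference. The difference of responses was -0.87 for Pygl, whose level was higher with doxorubicin in the wild type and lower in Top2b-/- cells, neither of which passed the test. With slide as a block 0 of the 7 passed, with adjusted p-values from 0.0668 to 0.234. In that fit the Top2b-/- response rests on 1 PBS array, the only one on the slide of the treated Top2b-/- arrays.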

How the results depend on the processing

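Leaving out 1 array also changed the calls among all genes. They ranged from 3630 to 6646 for the wild-type response at 16 h and from 1 to 1552 at 72 h. For the PBS genotypes they ranged from 957 to 3825 at 16 h and from 208 to 680 at 72 h. For the difference of responses at 16 h the range was 1010 to 4746. The counts below are of the 49 genes called. The response of the wild type at 16 h (13 genes) ranged from 9 to 23 when 1 array was left out. It was 7 within slide 1, which holds all wild-type arrays of that time. The PBS genotype difference at 16 h (14) ranged from 5 to 19, and was 22 with normexp and quantile scaling, 8 on the authors' value table, 6 without the filter on dim probes, 4 within slide 1, 7 with slide as a block and 5 with the Ddx3y signal as a covariate. The difference of responses at 16 h (7) ranged from 2 to 15, and was 11 with normexp and quantile scaling, 2 without the filter, 0 with slide as a block, 2 in 1 fit over all 24 arrays and 3 with the Ddx3y covariate. With genotype taken from the characteristic field, these 3 counts were 0, 0 and 0. The wild-type response at 72 h (4) ranged from 0 to 10, and was 0 without the filter, 0 within slide 3, 11 with slide as a block, 14 in 1 fit over all arrays and 0 with the Ddx3y covariate. The PBS genotype difference at 72 h (3) ranged from 3 to 5, and was 5 with slide as a block. Among arrays without the Ddx3y signal its Stbd1 call was lost. The cause of these changes was not tested.

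Replicate numbers were not taken as pairs, since not every same-number pair of arrays had deviations that correlated above 0.1: 6 of 18 did at 16 h (-0.124 to 0.286) and 16 of 18 at 72 h (0.002 to 0.729, median 0.354), where numbers follow the slides in part. Of pairs with different numbers 2 of 36 did at 16 h (median -0.0295) and 7 of 36 at 72 h (median -0.2425). At 72 h arrays of 1 number thus deviated together, which the main fit does not model. With the replicate block the wild-type response was called for 12 genes at 16 h and 14 at 72 h, the difference of responses at 16 h for 3, and the PBS genotype difference for 11 at 16 h and 5 at 72 h. Hk1 reversed with its probes. Its wild-type response at 16 h was -0.46 as the mean of its kept probes and -0.77 through a probe on its own chromosome, and the difference of responses through that probe was 0.96. Not run were the genotype characteristic at 72 h, 1 Y status for PBS genotypes at 16 h, and 1 slide for the difference of responses at 16 h.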
